A study of Mus musculus with 30 samples.

Results

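The spleen data described here ask whether extra Tlr7 changes red pulp macrophages and Ly6C-high monocytes in the same way. The quantity of interest is the difference between 2 genotype effects: TLR7.1 minus wild type in red pulp macrophages (RPM), minus TLR7.1 minus wild type in monocytes (Mono). It uses 24 of the 30 libraries of the study, 6 in each of 4 groups (WT RPM, TLR7.1 RPM, WT Mono and TLR7.1 Mono). The 6 libraries of inflammatory hemophagocytes from TLR7.1 spleens entered the fit only to estimate the spread. The donors were 12 female mice aged 9.4 to 15.7 weeks, 6 WT B6 and 6 TLR7.1, a line that overexpresses Tlr7. The promoter of the extra Tlr7 is not given in the sources used here, so which cells carry it is not stated. Each mouse gave 1 RPM and 1 Mono library, so both effects come from the same animals. Both sorts took live CD45.2+, SiglecF-, Ly6G- cells. Monocytes were also Ly6C+, Ccr2+ and CD11b+, and RPM were Ly6C-, CD31 low, VCAM high, F4/80+ and CD11b negative to intermediate. Libraries were made from 500 sorted cells with SMART-Seq v4 and Nextera XT. In such bulk samples, fewer cells of a type and less RNA per cell cannot be told apart.

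Toll-like receptor 7 sits in endosomes, binds single-stranded RNA and signals through Myd88 to interferon regulatory factors and NF-kB. Red pulp macrophages clear aged red cells and recycle their heme iron, and depend on the transcription factor Spic. Ly6C-high monocytes are short-lived cells of bone marrow origin, some of which become macrophages in tissue.

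Levels are given as CPM (read counts scaled to a common library total) after TMM scaling, and changes as log2 fold changes ± SE from edgeR. A gene is called where its quasi-likelihood p, adjusted by Benjamini-Hochberg over all 11030 genes tested, is under 0.05. Tlr7 itself was read first. It lay at 107.1 to 384.4 CPM (median 202.3) in WT RPM and at 496.8 to 1531 (median 1001) in TLR7.1 RPM. In monocytes it lay at 214.7 to 365.7 CPM (median 305.1) in wild type and at 767 to 1183 (median 1030) in TLR7.1. The genotypes did not overlap in either population, and the transgenic groups reached nearly the same median. The log2 rise was 2.18 ± 0.230 in RPM and 1.70 ± 0.218 in Mono, both called. The difference between them, 0.48 ± 0.308 with a 95% interval of -0.15 to 1.10, was not called (adjusted p = 0.66). An exact two-sided permutation test of the RPM minus Mono difference per mouse, 6 against 6 mice, gave p = 0.0758, where 0.002165 is the smallest p possible. Of 11 tested genes in a chosen list of genes near Tlr7 on the X chromosome, Tlr7 included, only Tlr7 was called in either population. Of all genes tested, 8.25% were called in RPM and 2.1% in Mono. At these shares, the lack of calls in so few genes is no result about them.

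The gates were visible in the RNA. Vcam1 lay at 1191 to 4871 CPM over the 12 RPM libraries and at no more than 17.1 CPM in any monocyte library. Ccr2 lay at 1033 to 1697 CPM in monocytes and at no more than 53.5 CPM in RPM. Spic, at 1032 to 1753 CPM in RPM, was not called for genotype in either population.

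Depth and spread differed between the populations. Library totals ran from 95002 to 1932427 counts, with medians of 1584430 in WT Mono, 1656511.5 in TLR7.1 Mono, 544757 in WT RPM and 820242 in TLR7.1 RPM. The median gene varied between mice with an SD of 0.32 and 0.28 in log2(CPM + 1) in WT and TLR7.1 Mono, and of 0.80 and 0.81 in WT and TLR7.1 RPM. The shallowest library was the WT RPM library of mouse 24323. RPM libraries also held erythroid, B cell and plasma cell transcripts, whose summed levels are given below.

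Most genes called in monocytes moved the same way in macrophages, and few genes were called for the difference. In the fit with 1 spread per gene for all groups, 910 genes were called in RPM (8.25%), with 494 rises (4.48%) and 416 falls (3.77%), and 232 in Mono (2.1%), with 199 rises (1.8%) and 33 falls (0.299%). The 6 libraries of each genotype did not overlap for 190 genes in RPM (1.72%) and 460 in Mono (4.17%). These counts do not rank the populations. A fit that let each group have its own spread (limma-voom with group weights) called 225 genes in RPM (2.04%) and 915 in Mono (8.3%; 513 rises and 402 falls). Of the 232 genes called in Mono, 203 (87.5%) had the same sign in RPM, against 60% of all genes tested. Of the 910 called in RPM, 666 (73.2%) had the same sign in Mono. The 199 Mono rises had a median log2 change of 3.02 in Mono and 1.70 in RPM. The 494 RPM rises had a median of 1.84 in RPM and 0.21 in Mono, and the 416 RPM falls a median of -1.34 in RPM and -0.21 in Mono. The median over all genes was -0.01 in RPM and -0.02 in Mono.

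The difference between the effects was called for 76 genes (0.689%), 44 more positive in RPM (0.399%) and 32 more negative (0.29%). With group weights it was called for 69 genes (0.626%), of which 42 were among the 76. Each call set below follows from these 3 contrasts. Genes called in both populations with the same sign numbered 93 (0.843%), 85 rises (0.771%) and 8 falls (0.0725%). Genes called in RPM and for the difference but not in Mono numbered 63 (0.571%), and the reverse held for 12 (0.109%). No gene was called in both with opposite signs by edgeR. At unadjusted p under 0.05 in both, 34 genes had opposite signs and 342 the same sign; DESeq2 called 1 opposite gene and limma-voom with group weights called 3. A further 754 genes were called in RPM alone and 127 in Mono alone without a call for the difference, so these data do not place them in 1 population.

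**Figure D1:**
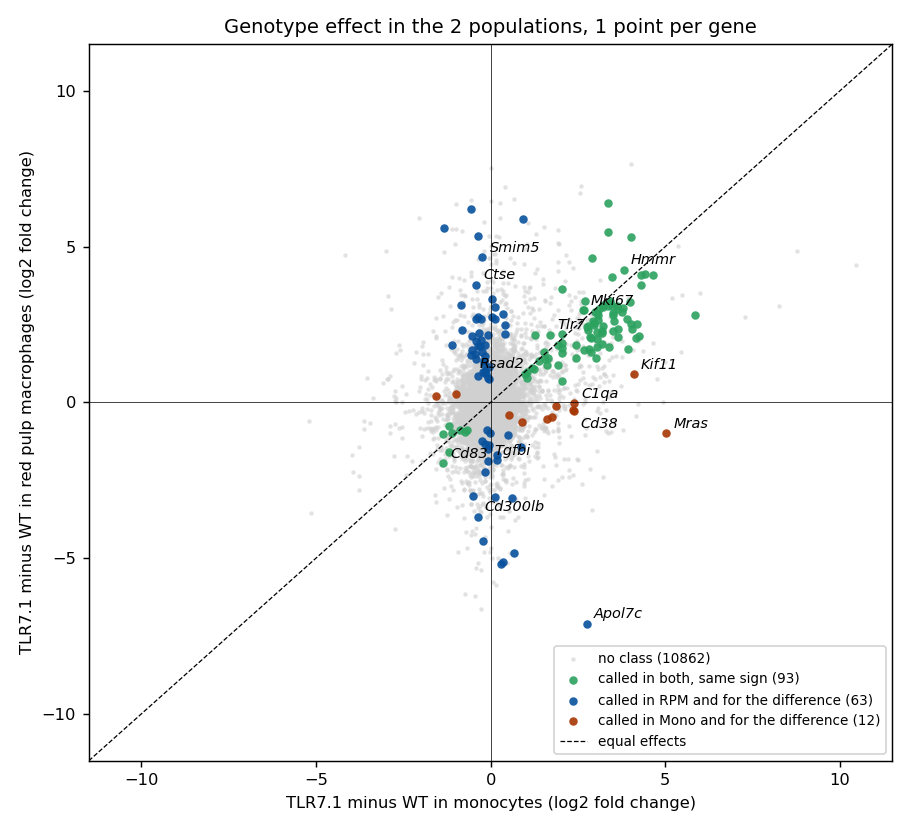
Log2 fold change of TLR7.1 over wild type in monocytes (x axis) and in red pulp macrophages (y axis), 1 point for each of 11030 genes; the dashed line marks equal effects. The 93 genes called in both populations lie along the line at the upper right and lower left, the 63 RPM genes along the vertical axis and the 12 Mono genes along the horizontal axis.

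The count for the difference depended on single mice. It was 142 without WT mouse 24117, and 50 without 24214, 43 without 24261, 46 without 24308, 50 without 24323, 31 without 24415 and 41 without 24416. With the same omissions the RPM set held 111, 38, 35, 36, 42, 23 and 32 genes, and the Mono set 27, 9, 7, 9, 7, 6 and 7. RPM calls fell to 602 without mouse 24107 and to 569 without 24214. A fit with mouse as a block called 63 genes for the difference, 49 of them among the 76, and all 76 kept their sign. In 25 genes (14 positive and 11 negative) the call stood with the block and without each of the 12 mice in turn, and the genes described one by one below come from these 25 or from the gene lists unless another choice is stated. For 73 of the 76 the sign was the same on each of the 3 collection dates. Mouse 24323 was the only WT mouse of its date. The per-mouse RPM minus Mono differences of the genotypes did not overlap for 32 of the 76, against 115 of all genes (1.04%). The 76 were chosen from these same libraries, so both counts are descriptions and no independent check.

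Cell division genes rose in both populations. The cell cycle list has 36 tested genes, from replication factors to mitotic kinesins, and all 36 had the same sign in both populations. Of these, 20 rose in RPM and 25 in Mono, where 4.48% and 1.8% of all genes rose. In both populations 16 rose, out of 85 shared rises in all (0.771% of all genes). The median log2 change of the 36 was 1.88 in RPM and 2.72 in Mono, against the medians near 0 over all genes. The summed level of the list lay at 900.7 to 2473 CPM (median 1227) in WT RPM and at 2414 to 5867 (median 4088) in TLR7.1 RPM. Its monocyte levels were 566.9 to 1175 CPM (median 894) in wild type and 3133 to 5981 (median 4700) in TLR7.1. The genotypes were apart in monocytes, and in RPM only the 95002-count WT library of mouse 24323 reached the lowest TLR7.1 library. With group weights 6 members were called in RPM and 30 in Mono. Without mouse 24107 the RPM count was 13.

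Mki67, the proliferation marker Ki-67, lay at 8.61 to 93.9 CPM (median 63.4) in WT RPM and 210.9 to 614.5 (median 422.7) in TLR7.1 RPM. In monocytes it lay at 30.5 to 75.2 CPM (median 47.2) in wild type and 196.9 to 412.4 (median 313.5) in TLR7.1. No TLR7.1 library fell within the wild-type range. The log2 rise was 2.96 ± 0.354 in RPM (adjusted p = 2.1e-06) and 2.66 ± 0.327 in Mono (adjusted p = 2.76e-06). Its difference was 0.29 ± 0.464 with an interval of -0.65 to 1.24, which was not called and does not show equal effects. Only 10 of the 93 shared genes had an interval within 1 log2 unit of 0.

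Ccnb2, cyclin B2 of the mitotic cyclin-dependent kinase, lay at 0 to 37.3 CPM (median 16.5) in WT RPM and 63.8 to 329.4 (median 122.8) in TLR7.1 RPM. Its monocyte levels were 5.99 to 87.7 CPM (median 49.2) in wild type and 259.9 to 442.6 (median 368.4) in TLR7.1. Again no TLR7.1 library overlapped a wild-type one. The log2 rises were 2.89 ± 0.542 and 2.99 ± 0.472 and differed by -0.10 ± 0.721. Cenpf, a kinetochore protein, lay at 0 to 25.9 CPM (median 10.3) and 19.5 to 183.4 (median 97.8) in WT and TLR7.1 RPM. Its monocyte levels were 1.76 to 20.9 CPM (median 11.6) and 61.2 to 169.6 (median 116.2). The RPM ranges met in 1 TLR7.1 library and the monocyte ranges did not meet. The log2 rises were 3.19 ± 0.547 in RPM and 3.41 ± 0.485 in Mono. Hmmr, a spindle-associated hyaluronan receptor, lay at 0 to 5.98 CPM (median 0.8603) in WT RPM and 5.21 to 98.9 (median 57.4) in TLR7.1 RPM. Its monocyte ranges, 0 to 19.2 CPM (median 6.82) and 70.9 to 177.9 (median 102.9), did not overlap. The log2 rises of Hmmr were 4.26 ± 0.717 and 3.81 ± 0.560.

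Other large shared rises were those of the kinesins Kif2c, Kif22, Kif18a and Kif15, which move or trim spindle microtubules, and of Oip5, Ncapg, Diaph3 and Cenpn. Oip5 and Cenpn act at centromeres, Ncapg is a condensin subunit and Diaph3 a formin that nucleates actin. Their log2 changes ran from 3.07 (Kif15) to 5.46 (Kif2c) in RPM and from 3.21 (Kif15) to 4.65 (Oip5) in Mono. The 5.46 of Kif2c rests on 2 counts in WT RPM against 100 in TLR7.1 RPM, a ratio of 40.3 with a counting interval of 10.9 to 337.5. With group weights, the RPM calls of Oip5, Hmmr, Ncapg, Kif2c, Cenpf, Kif22, Cenpn and Kif18a were lost and those of Diaph3 and Kif15 stood. Among all 93 shared genes, 23 were called in both populations with group weights, and 75 had the smaller effect in RPM. The 85 shared rises had a median log2 change of 2.43 in RPM and 3.06 in Mono. The shared set held 57 genes without mouse 24107.

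**Figure D2:**
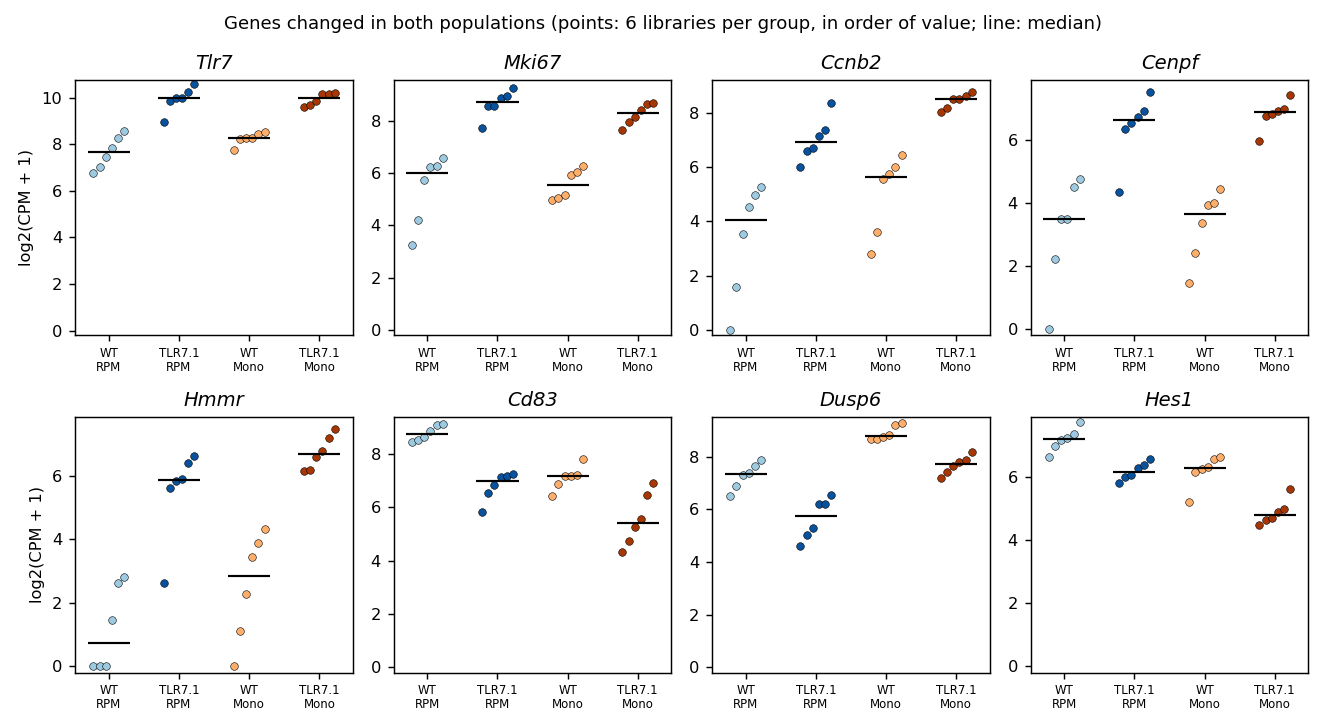
log2(CPM + 1) of 8 genes called in both populations, in the 6 libraries of each group (points, in order of value) with the median (line). Tlr7, Mki67 and Ccnb2 separate the genotypes fully in both populations, and Cd83, Dusp6 and Hes1 are lower in TLR7.1 cells of both.

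Promoters of the shared rises were compared with those of all tested genes, because mitotic genes are known to carry a cell cycle homology region near the start site together with CCAAT boxes. The homology region was searched as TTTGAA, the CCAAT box by its own letters and the GATA site as AGATAA, on both strands and all chosen after the data were seen. RefSeq promoters on GRCm38.p6 of 300 bases around the start were used for the 6546 tested genes with a single promoter. Among 62 shared rises, 36 promoters (58.1%) held TTTGAA, against 12.1% of all 6546. CCAAT was held by 74.2% against 39.9%, and both by 48.4% against 4.9%. A match is a description of these letters and not a bound site. The promoters of 4 of the genes described above are shown, with both motifs, on either strand, in capitals.

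Ccnb2, chr9:70421505-70421804, minus strand: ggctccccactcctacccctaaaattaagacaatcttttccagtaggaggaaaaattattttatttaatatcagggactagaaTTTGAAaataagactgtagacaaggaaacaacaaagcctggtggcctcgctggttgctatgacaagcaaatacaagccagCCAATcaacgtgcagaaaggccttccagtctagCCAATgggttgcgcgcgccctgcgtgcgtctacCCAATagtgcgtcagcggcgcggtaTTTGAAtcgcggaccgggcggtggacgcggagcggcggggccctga
Mki67, chr7:135716330-135716629, minus strand: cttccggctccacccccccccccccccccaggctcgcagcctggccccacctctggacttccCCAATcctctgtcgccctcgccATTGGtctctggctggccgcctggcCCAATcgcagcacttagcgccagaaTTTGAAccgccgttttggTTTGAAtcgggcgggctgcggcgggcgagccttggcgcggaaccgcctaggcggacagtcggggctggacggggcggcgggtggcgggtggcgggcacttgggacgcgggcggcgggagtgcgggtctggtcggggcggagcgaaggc
Cenpf, chr1:189688037-189688336, minus strand: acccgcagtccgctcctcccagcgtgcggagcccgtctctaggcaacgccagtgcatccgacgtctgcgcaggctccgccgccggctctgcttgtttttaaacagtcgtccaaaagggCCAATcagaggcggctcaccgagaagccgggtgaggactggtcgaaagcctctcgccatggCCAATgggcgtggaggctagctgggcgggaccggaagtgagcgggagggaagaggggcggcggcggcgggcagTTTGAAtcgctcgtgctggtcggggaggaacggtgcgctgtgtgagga
Hmmr, chr11:40733388-40733687, minus strand: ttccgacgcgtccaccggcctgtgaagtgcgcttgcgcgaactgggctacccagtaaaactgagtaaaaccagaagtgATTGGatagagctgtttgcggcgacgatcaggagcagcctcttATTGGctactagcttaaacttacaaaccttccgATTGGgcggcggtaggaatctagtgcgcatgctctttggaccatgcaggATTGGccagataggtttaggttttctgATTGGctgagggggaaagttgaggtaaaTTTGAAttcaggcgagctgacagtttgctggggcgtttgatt

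The genes called for the difference had 21 single promoters in the set more positive in RPM and 23 in the set more negative. TTTGAA was in 0 of the 21 and in 4 of the 23 (17.4%), among them that of Cks1b. The CCAAT box was in 38.1% of the positive and 47.8% of the negative set, and both were in 0 and in 3 promoters (13.0%). The interferon-stimulated response element was in 3 of 21 (14.3%) and 3 of 23 (13.0%), against 3.6% of all promoters. The gamma-activated site was in 1 and 0 promoters (4.8% and 0.0%), against 7.1%, and the kappa-B site in 1 and 0 (4.8% and 0.0%), against 1.5%. AGATAA was in 2 of 21 (9.5%) and 2 of 23 (8.7%), against 6.0%. Apart from the CCAAT box, these shares rest on 4 or fewer promoters each.

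Cks1b, a small subunit of cyclin-dependent kinases, was the 1 shared gene also called for the difference. It lay at 107.1 to 140.5 CPM (median 121.5) in WT RPM and 165.2 to 245.8 (median 201.2) in TLR7.1 RPM. In monocytes it went from 20.5 to 60.2 CPM (median 33.8) in wild type to 119.9 to 168.7 (median 158.0) in TLR7.1. Neither pair of ranges overlapped. The rise was 0.70 ± 0.193 in RPM and 2.05 ± 0.194 in Mono, a difference of -1.35 ± 0.270 (adjusted p = 0.00908). Its RPM call was lost without mouse 24261 and with group weights. Kif11, the kinesin that pushes spindle poles apart, was the 1 member of the cell cycle list called for the difference, at -3.19 ± 0.722 (adjusted p = 0.0247). It lay at 2.87 to 53.5 CPM (median 13.0) in WT RPM and 5.21 to 50.4 (median 29.6) in TLR7.1 RPM, ranges that overlapped. Its monocyte ranges, 0.59 to 10.3 CPM (median 6.16) and 57.5 to 136.0 (median 125.0), did not. The Kif11 call was lost without mouse 24117, 24261, 24308 or 24415 and with group weights (adjusted p = 0.114). Nor was it called with terms for the collection date or with thinned counts.

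C4b and Car2, which are no cell division genes, also rose in both populations. C4b, a complement component, had a median of 20.2 CPM in WT RPM and 137.9 in TLR7.1 RPM, and of 0.32 and 13.8 CPM in WT and TLR7.1 Mono. The ranges were apart in RPM and overlapped in Mono, and the log2 rises were 2.62 ± 0.566 and 3.54 ± 0.685. Car2, carbonic anhydrase 2, which is abundant in erythroid cells, lay at 37.3 to 471.0 CPM (median 256.3) in WT RPM and 858.8 to 1284 (median 967.3) in TLR7.1 RPM. Its monocyte ranges were 0 to 7.70 CPM (median 0.29) and 15.9 to 52.5 (median 28.8). Neither pair overlapped, and the log2 rises were 2.07 ± 0.392 in RPM and 4.17 ± 0.625 in Mono.

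Shared falls were few. Cd83, a surface protein of activated antigen-presenting cells, lay at 353.3 to 567.2 CPM (median 430.0) in WT RPM and 56.3 to 150.1 (median 127.2) in TLR7.1 RPM. In monocytes the ranges were 85.8 to 225.6 CPM (median 144.6) and 19.1 to 118.3 (median 42.2). The genotypes were apart in RPM and overlapped in Mono. The log2 changes were -1.94 ± 0.306 (adjusted p = 0.000132) and -1.37 ± 0.299 (adjusted p = 0.00543). Dusp6, the phosphatase that shuts off ERK kinases, lay at 89.6 to 235.5 CPM (median 162.2) and 23.6 to 91.1 (median 55.1) in WT and TLR7.1 RPM. In monocytes it lay at 401.9 to 615.0 CPM (median 441.7) and 145.1 to 290.1 (median 211.1), and here the genotypes did not overlap. Its log2 changes were -1.59 ± 0.281 and -1.19 ± 0.244. Hes1, a repressor induced by Notch signals, changed by -1.01 ± 0.268 in RPM and -1.35 ± 0.262 in Mono. The RPM call of Hes1 was lost with group weights.

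The 3 falls above were called in both populations without each mouse in turn. The other named falls were less steady. Zbtb20, a zinc finger repressor, lost its RPM and its Mono call without 24068, 24107, 24214, 24261, 24304, 24415 or 24416. Slc46a3, a lysosomal transporter, lost it without 24107, 24117, 24304, 24308, 24323, 24380, 24415 or 24416. Tgfbr1, the type 1 TGF-beta receptor, kept its RPM call and had an adjusted p of 0.0439 in Mono, which it lost without 10 of the 12 mice (all but 24214 and 24304). Adgre4, an adhesion receptor of the EGF-TM7 family, lost its Mono call without 24107, 24261 or 24415. Their log2 changes in RPM were -0.98 (Zbtb20), -0.75 (Slc46a3), -0.94 (Tgfbr1) and -0.89 (Adgre4).

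**Figure D3:**
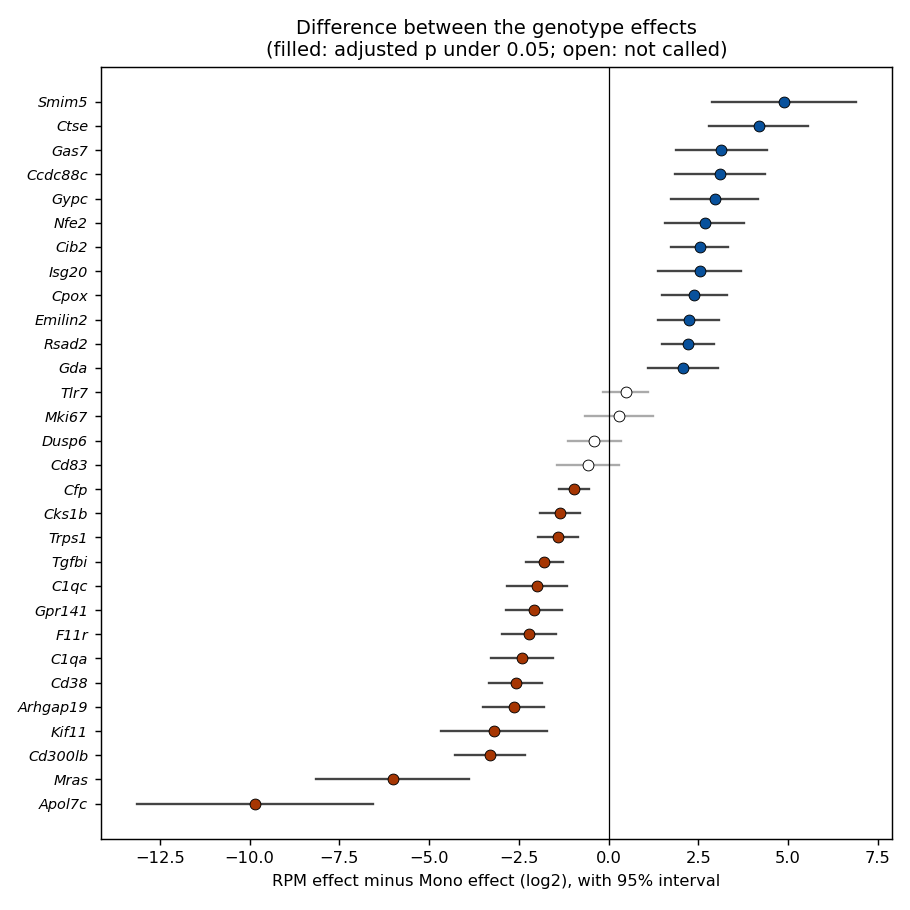
Difference between the genotype effects, RPM minus Mono, on the log2 scale with its 95% interval for 26 named genes called for the difference (filled) and 4 shared genes that were not (open). The called estimates run from -9.85 (Apol7c) to 4.89 (Smim5), and the open intervals cross 0.

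Genes that rose in TLR7.1 macrophages, were called for the difference and were not called in monocytes numbered 42. In wild-type cells 35 of these 42 (83.3%) had a higher mean CPM in monocytes than in macrophages, against 51.6% of all genes tested. Wild-type levels enter both contrasts, so this is a description. Of 21 classical monocyte genes, 3 rose (Gda, Ms4a6c and S100a4) and 1 fell (Tgfbi) in RPM, where 4.48% of all genes rose and 3.77% fell. The median log2 change of the 21 in RPM was 0.69. Between 1 and 6 rose when single mice were left out, with 6 without 24117, 5 without 24028, 1 without 24416, and 1 rose with group weights. The summed level of the list in RPM was 1325 to 2552 CPM (median 1881) in wild type and 1828 to 2404 (median 2055) in TLR7.1, overlapping ranges. Ly6c2, at 388.0 CPM or more in every monocyte library, lay at 0 to 30.9 CPM (median 3.23) in WT RPM and 3.99 to 58.1 (median 23.2) in TLR7.1 RPM and was not called (adjusted p = 0.0724). Ccr2 had medians of 5.57 and 0.687 CPM in WT and TLR7.1 RPM. The part of monocytes in the macrophage rises was not tested.

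Ctse, the endosomal protease cathepsin E, lay at 0 to 32.1 CPM (median 22.6) in WT RPM and at 91.7 to 589.9 (median 239.5) in TLR7.1 RPM. Its monocyte levels were 14.1 to 40.4 CPM (median 33.0) in wild type and 11.9 to 32.4 (median 22.6) in TLR7.1. Every TLR7.1 macrophage library was above every other library of the 4 groups. The log2 effects were 3.77 ± 0.514 in RPM and -0.42 ± 0.450 in Mono, a difference of 4.19 ± 0.678 (adjusted p = 0.000929). Cib2, a calcium- and integrin-binding protein, showed the same arrangement. It lay at 0 to 48.2 CPM (median 36.5) in WT RPM and 171.6 to 354.8 (median 204.5) in TLR7.1 RPM. Its monocyte levels were 44.5 to 64.5 CPM (median 47.2) in wild type and 45.0 to 71.5 (median 55.0) in TLR7.1. The difference was 2.54 ± 0.391 (adjusted p = 0.000545).

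Smim5, a small membrane protein, had the largest positive difference of the named genes, 4.89 ± 0.990 (adjusted p = 0.00909). It lay at 0 to 2.87 CPM (median 0) in WT RPM and 5.42 to 54.9 (median 37.3) in TLR7.1 RPM, against 60.9 to 146.3 CPM over all monocyte libraries. TLR7.1 macrophages thus stood between the other groups, without overlap. Gas7, a cytoskeletal protein of the PCH family, rose from 0 to 9.96 CPM (median 3.54) to 15.1 to 39.1 (median 24.4) in RPM. In monocytes its medians were 70.6 CPM in wild type and 37.3 in TLR7.1, a log2 change of -0.82 ± 0.376 that was not called. Its difference was 3.14 ± 0.623 (adjusted p = 0.00901). Ccdc88c, a signalling scaffold also called Daple, gave 3.10 ± 0.619 (adjusted p = 0.00901) and Emilin2, an extracellular matrix glycoprotein, 2.23 ± 0.421 (adjusted p = 0.00459). With group weights Smim5 and Ccdc88c missed the threshold (adjusted p = 0.0549 and 0.0537), and Ccdc88c also missed it with terms for the collection date. The macrophage medians rose from 2.70 to 33.4 CPM for Ccdc88c and from 7.49 to 58.6 for Emilin2, against monocyte medians of at least 89.9 and 384.2 CPM.

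Gda, guanine deaminase of purine breakdown, is the member of the monocyte list called in this direction. It lay at 0 to 42.8 CPM (median 24.95) in WT RPM and 87.6 to 177.8 (median 102.9) in TLR7.1 RPM, without overlap. The difference of 2.07 ± 0.483 had an adjusted p of 0.0294, which was 0.0543 with mouse as a block. Its call was lost without 24068, 24261, 24308, 24415 or 24416. Nor was it called with group weights, with terms for the collection date or with thinned counts.

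**Figure D4:**
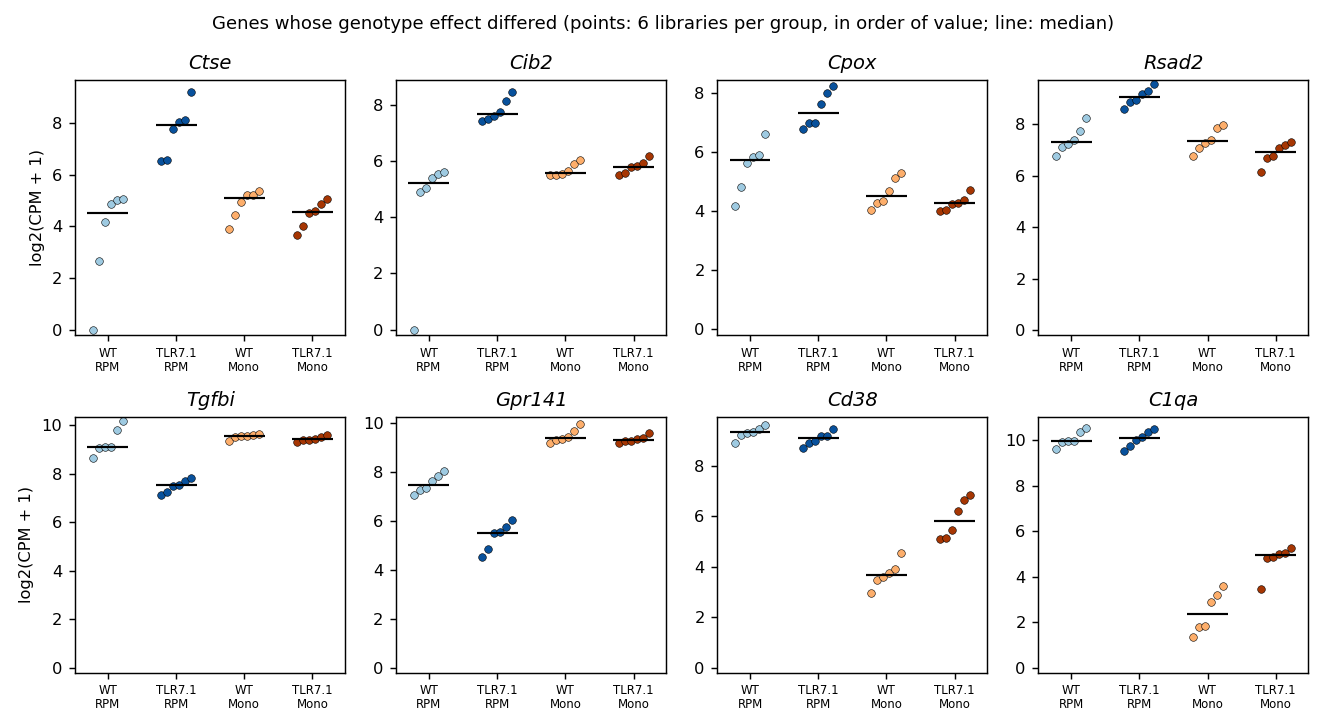
log2(CPM + 1) of 8 genes called for the difference, in the 6 libraries of each group (points, in order of value) with the median (line). Ctse, Cib2, Cpox and Rsad2 are higher and Tgfbi and Gpr141 lower in TLR7.1 macrophages alone, while Cd38 and C1qa are higher in TLR7.1 monocytes, still below both macrophage groups.

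Genes of heme synthesis and red cell proteins were among the macrophage rises. Cpox, coproporphyrinogen oxidase of heme synthesis, lay at 17.2 to 96.4 CPM (median 52.0) in WT RPM and 110.6 to 303.0 (median 161.9) in TLR7.1 RPM. Its monocyte ranges, 15.4 to 38.1 CPM (median 22.3) and 15.2 to 25.4 (median 18.2), overlapped. The log2 effects were 1.97 ± 0.322 and -0.42 ± 0.310, and their difference 2.39 ± 0.446 (adjusted p = 0.0042). Gypc, the membrane protein glycophorin C, rose from 0 to 21.2 CPM (median 0) to 31.3 to 71.5 (median 51.8) in RPM, with monocyte medians of 86.3 and 67.1 CPM. Its difference was 2.96 ± 0.594 (adjusted p = 0.00908). Nfe2, a transcription factor of erythroid and megakaryocytic cells, went from 0 to 28.8 CPM (median 20.6) to 56.6 to 362.8 (median 74.4) in RPM. In monocytes Nfe2 lay between 345.9 and 432.6 CPM in all 12 libraries. Its difference was 2.68 ± 0.542 (adjusted p = 0.00909).

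A further 2 genes of this kind were chosen after their values were seen. Slc25a37, the mitochondrial iron importer mitoferrin 1, gave 1.86 ± 0.411 (adjusted p = 0.0224). Abcb10, a mitochondrial transporter needed for hemoglobin formation, gave 2.95 ± 0.660 (adjusted p = 0.0231, and 0.104 with mouse as a block). Each lost its call without at least 4 of the 12 mice, among them 24261, 24304 and 24415 for both.

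Transcripts of red cell precursors were also among the RPM rises. Of 21 tested members of the erythroid list, 13 rose and none fell in RPM, where 4.48% of all genes rose. In Mono 1 (Car2) rose, where 1.8% of all genes rose, and none was called for the difference. The median log2 change was 2.45 in RPM and 1.37 in Mono. The summed level was 545 to 6648 CPM (median 1659) in WT RPM and 4479 to 6857 (median 5081) in TLR7.1 RPM. The WT value of 6648 is that of mouse 24323, and the other WT libraries held 545 to 3014 CPM. In monocytes the sum was 16.5 to 300.1 CPM (median 45.0) in wild type and 81.2 to 373.1 (median 275.1) in TLR7.1. None of the 21 was at 0 throughout either RPM group. Klf1, the erythroid master regulator, lay at 0 to 26.4 CPM (median 9.67) in WT RPM and 93.3 to 225.2 (median 144.8) in TLR7.1 RPM, and rose by 3.55 ± 0.749 (adjusted p = 0.00268). Hba-a1, alpha globin, changed by -0.06 ± 0.591 and was not called. The part of erythroid cells in the rises of Cpox, Gypc, Nfe2, Slc25a37 and Abcb10 was not tested. Nor was it tested for the other macrophage rises, among them those of Ctse, Cib2 and Smim5. Of 24 tested macrophage genes of iron recycling, 3 rose (Cp, Slc11a2 and Tfrc, the last also in the erythroid list) and 1 fell (Cd163) in RPM, where 4.48% of all genes rose and 3.77% fell, 1 fell (Slc11a1) in Mono, and none was called for the difference. The RPM falls were 2 without mouse 24117 or 24261 and 3 without 24380.

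**Figure D5:**
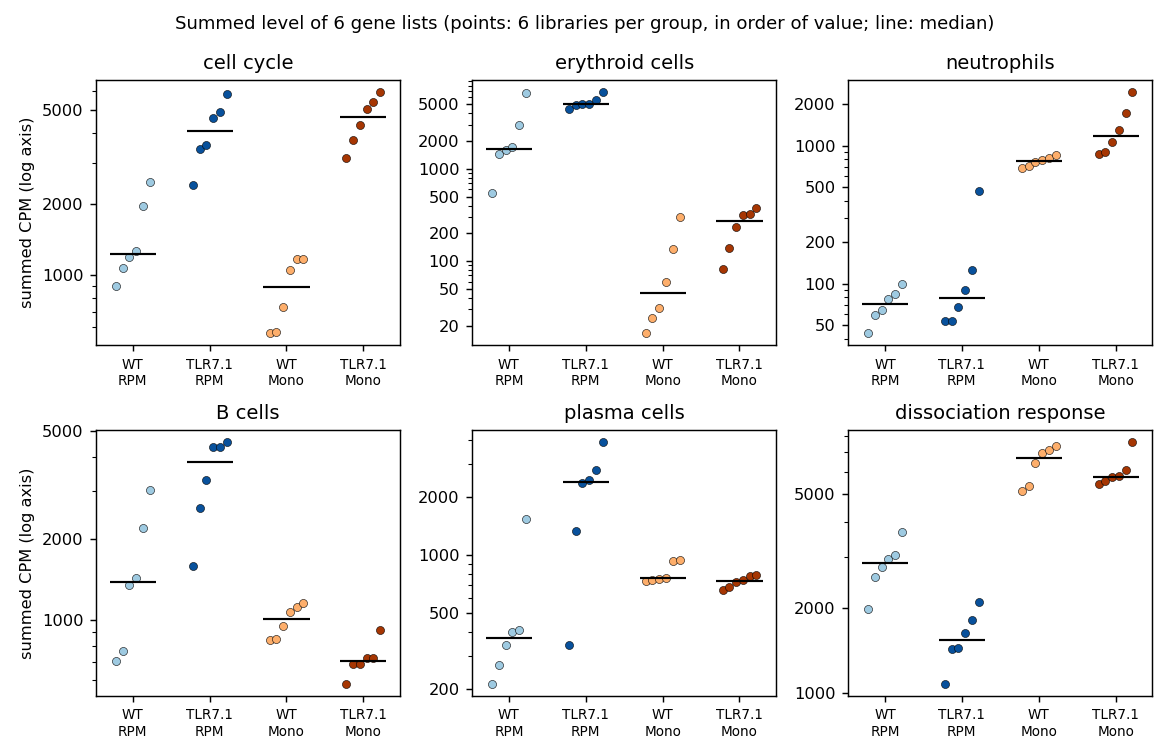
Summed CPM (log axis) of 6 gene lists in the 6 libraries of each group (points, in order of value) with the median (line). The cell cycle list is higher in TLR7.1 cells of both populations; erythroid, B cell and plasma cell sums are higher and dissociation genes lower mainly in TLR7.1 macrophages, and neutrophil genes are higher in TLR7.1 monocytes.

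B cell and plasma cell transcripts were also higher in TLR7.1 macrophage libraries. The B cell sum was 706.5 to 3020 CPM (median 1387) in WT RPM and 1583 to 4559 (median 3841) in TLR7.1 RPM, and 840.3 to 1154 (median 1007) and 580.6 to 916.3 (median 705.2) in monocytes. Of 17 members, Ighm and Igkc rose in RPM, where 4.48% of all genes rose. Bank1 and Cr2 fell in Mono, where 0.299% of all genes fell. Of the 17, 16 had a positive difference, with a median of 2.28 over the list, although none was called for it. The plasma cell sum had medians of 368.6 and 2417 CPM in WT and TLR7.1 RPM, with overlapping ranges. Of 10 plasma cell genes 4 rose and 1 fell in RPM, where 4.48% of all genes rose and 3.77% fell. None of the 10 was called in Mono or for the difference. Leaving out single mice gave 0 to 4 B cell rises (0 without 24107, 4 without 24117, and 1 without 24214, 24304, 24308, 24323, 24415 or 24416). It gave 1 to 6 plasma cell rises (1 without 24028, 24214, 24415 or 24416, and 2 without 24107, 24308 or 24323). With group weights no B cell gene and 1 plasma cell gene were called as rises in RPM. Of 7 megakaryocyte and platelet genes 3 (Gp1bb, Gp9 and Itga2b) rose in RPM, against 4.48% of all genes, and none with group weights. The sums of the 7 were 342.6 to 585.6 CPM in wild type and 433.5 to 552.0 in TLR7.1. The part of these cells in the macrophage calls was not tested.

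Of 54 tested genes induced by type I interferon, 7 rose and 1 fell in RPM, where 4.48% of all genes rose and 3.77% fell. None was called in Mono. Of the 54, 2 were called for the difference, against 0.689% of all genes. Without mouse 24107, 24214, 24308, 24415 or 24416 the count of rises was 4, without 24117 it was 10, and with group weights it was 2. The count for the difference was 3 without 24117 and 1 without 24214, 24261, 24304, 24308, 24323 or 24415. The median log2 change was 0.17 in RPM and -0.02 in Mono, and the summed ranges overlapped in both populations (7092 to 10160 and 8266 to 11080 CPM in RPM). Rsad2, the antiviral enzyme viperin, lay at 108.0 to 299.7 CPM (median 158.9) in WT RPM and 390.0 to 757.7 (median 534.0) in TLR7.1 RPM. In monocytes it lay at 107.7 to 248.6 CPM (median 161.3) and 70.3 to 159.3 (median 122.2). The genotypes were apart only in macrophages. The log2 effects were 1.68 ± 0.263 and -0.53 ± 0.248, and the difference of 2.21 ± 0.361 (adjusted p = 0.000929) was called in every alternative run.

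Isg20, an exonuclease that degrades viral RNA, lay at 0 to 113.6 CPM (median 26.6) in WT RPM and 96.4 to 434.6 (median 240.3) in TLR7.1 RPM. Its monocyte medians were 140.9 and 120.5 CPM. The difference was 2.54 ± 0.566 (adjusted p = 0.0231), lost without 24214, 24261, 24304, 24308, 24323 or 24415. The other macrophage rises of the list were Isg15, Cmpk2, Oasl2, Oas3 and Ms4a4c, and the fall was Ifi203. Isg15, a ubiquitin-like modifier, had medians of 33.2 and 83.9 CPM in WT and TLR7.1 RPM and of 84.2 and 86.4 in monocytes, and its difference of 1.34 ± 0.455 was not called (adjusted p = 0.192). Irf7, the factor downstream of Tlr7 that drives interferon genes, changed by 0.26 ± 0.239 in RPM and -0.14 ± 0.219 in Mono and was not called. Of 23 genes in the Tlr7 signalling list, Tlr7 and the adaptor Tirap rose in RPM and only Tlr7 in Mono. Of all genes, 4.48% rose in RPM and 1.8% in Mono. Tirap lost its call without 24028, 24107, 24214 or 24308.

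Genes that fell in TLR7.1 macrophages, were called for the difference and were not called in monocytes numbered 21. Tgfbi, a secreted matrix protein induced by TGF-beta and abundant in monocytes, lay at 393.7 to 1156 CPM (median 540.6) in WT RPM and 136.2 to 226.5 (median 182.3) in TLR7.1 RPM. Its monocyte levels were 635.3 to 785.4 CPM over all 12 libraries. The genotypes were apart in RPM and intermixed in Mono. The log2 effects were -1.87 ± 0.187 and -0.09 ± 0.173, a difference of -1.79 ± 0.253 (adjusted p = 0.0002). Gpr141, a receptor with no assigned ligand, fell from 133.5 to 257.5 CPM (median 177.5) to 21.7 to 63.8 (median 44.8) in RPM, with monocyte medians of 659.8 and 630.7 CPM. Its difference was -2.06 ± 0.383 (adjusted p = 0.0042).

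Cd300lb, an activating receptor of the CD300 family, lay at 10.7 to 91.2 CPM (median 39.2) in WT RPM and 1.07 to 10.9 (median 1.99) in TLR7.1 RPM. The 2 ranges touched at 1 library. Monocyte medians were 448.3 and 346.3 CPM, a log2 change of -0.37 ± 0.239 that was not called. The effect in RPM was -3.67 ± 0.401 and the difference -3.30 ± 0.475 (adjusted p = 0.0002). Trps1, a GATA-type repressor, lay at 84.3 to 169.3 CPM (median 140.5) in WT RPM and 27.1 to 70.0 (median 51.6) in TLR7.1 RPM, without overlap. Its difference was -1.41 ± 0.269 (adjusted p = 0.00528, and 0.0813 with group weights). Apol7c, an apolipoprotein L family member known from dendritic cells, lay at 21.4 to 85.6 CPM (median 33.3) in WT RPM and at 0 in most TLR7.1 RPM libraries. It had 216 counts in WT and 1 in TLR7.1 RPM, a ratio of 267.9 with a counting interval of 47.6 to 10630. In monocytes it was low, at 0 to 5.13 CPM in wild type and 0 to 14.4 (median 7.33) in TLR7.1, and was not called. The difference of -9.85 ± 1.621 (adjusted p = 0.000952) depends on that single count. Apol7c has close relatives in the genome, and how shared reads were assigned is not given in the sources used here.

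Early response genes of tissue dissociation also fell in macrophages. Of 21 tested, 7 fell in RPM (Atf3, Btg2, Dusp1, Fos, Junb, Nr4a1 and Zfp36), where 3.77% of all genes fell. In Mono 1 (Ier3) rose, where 1.8% of all genes rose, and none was called for the difference. The summed level was 1972 to 3672 CPM (median 2859) in WT RPM and 1082 to 2091 (median 1538) in TLR7.1 RPM, overlapping ranges. In monocytes it was 5129 to 7378 (median 6696) and 5441 to 7605 (median 5756). Dusp1, a phosphatase of stress kinases, lay at 266.8 to 503.1 CPM in WT RPM and 67.3 to 261.2 in TLR7.1 RPM. Its difference of -1.21 ± 0.334 missed the threshold (adjusted p = 0.0758). With group weights none of the 7 falls was called. Of 29 inflammatory genes, cytokines and targets of NF-kB, 5 fell in RPM (Nfkbiz, Nlrp3, Ptgs2, Rel and Tnf), against 3.77% of all genes. In Mono 1 rose (Ier3), against 1.8%. None was called for the difference or, in RPM, with group weights. The 5 were 1 without mouse 24107, 2 without 24214 or 24261, and 3 without 24304, 24308 or 24415. Their part in other macrophage falls was not tested.

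Genes called in TLR7.1 monocytes and for the difference, but not in macrophages, numbered 12, of which 10 rose. All 10 had a higher wild-type mean CPM in macrophages than in monocytes, against 48.4% of all genes tested. Wild-type levels enter the contrasts that chose these genes, so this too is only a description. Cd38, an ectoenzyme that breaks down NAD, lay at 6.68 to 22.2 CPM (median 11.7) in WT Mono and 33.3 to 112.7 (median 57.3) in TLR7.1 Mono. In macrophages it lay at 469.7 to 768.9 CPM (median 638.9) and 408.5 to 701.7 (median 541.1). The genotypes were apart in monocytes and overlapped in macrophages. The log2 effects were 2.35 ± 0.275 in Mono and -0.24 ± 0.232 in RPM, a difference of -2.59 ± 0.360 (adjusted p = 0.0002).

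C1qa, a chain of the complement initiator C1q and a macrophage marker, lay at 1.55 to 11.1 CPM (median 4.55) in WT Mono and 10.2 to 37.6 (median 29.9) in TLR7.1 Mono. The ranges met at 1 library of each genotype. In macrophages it lay at 788.0 to 1494 CPM (median 994.7) and 730.9 to 1415 (median 1076). The effects were 2.38 ± 0.346 in Mono and -0.02 ± 0.242 in RPM, a difference of -2.40 ± 0.424 (adjusted p = 0.0024) that was not called with mouse as a random effect. C1qc followed, with monocyte ranges of 2.56 to 28.1 CPM and 33.8 to 65.3, and a difference of -1.99 ± 0.411 (adjusted p = 0.0117) that was lost without mouse 24323. C1qb rose by 1.14 ± 0.265 in Mono (adjusted p = 0.011) and its difference of -1.23 ± 0.364 was not called (adjusted p = 0.106). At the highest, C1qa reached 1.18 and C1qb 1.54 reads per exonic base, against a highest value of 1.56 (Lyz2) among the genes examined. Whether levels are compressed at such densities was not tested.

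No other gene of the red pulp macrophage list was called as a rise in monocytes beside C1q. The sum of the 30 tested identity genes was 1886 to 2493 CPM (median 2134) in WT Mono and 1708 to 2063 (median 1845) in TLR7.1 Mono. Timd4 and Vcam1, high in the macrophages, lay at no more than 0.90 and 5.39 CPM in TLR7.1 Mono. The part of macrophages in the monocyte calls was not tested. The 3 identity genes that rose in Mono were C1qa, C1qb and C1qc, and the 2 that fell were Axl and Slc11a1. Of all genes, 1.8% rose and 0.299% fell in Mono. The 2 Mono falls were 1 without 24117, 24214, 24261, 24304, 24308, 24323, 24380 or 24416. In RPM no identity gene rose and Cd163, Itgad and Treml4 fell, where 4.48% of all genes rose and 3.77% fell. The count of 3 falls was 7 without mouse 24380 and 5 without 24117. With mouse as a random effect 8 fell and 1 rose, and with thinned counts 7 fell and 1 rose. Cd163, the scavenger receptor for haptoglobin-hemoglobin, went from a median of 456.4 to 113.0 CPM, a log2 change of -1.71 ± 0.339 (adjusted p = 0.00141), with a difference of -1.51 ± 0.517 that was not called.

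Arhgap19, a GTPase-activating protein, lay at 4.12 to 19.9 CPM (median 7.03) in WT Mono and 23.0 to 69.4 (median 48.3) in TLR7.1 Mono. In macrophages it lay at 277.9 to 479.1 CPM (median 319.1) and 171.3 to 403.6 (median 251.5). Its difference was -2.64 ± 0.417 (adjusted p = 0.000691). F11r, the junctional adhesion molecule A, lay at 30.8 to 68.7 CPM (median 39.2) in WT Mono and 116.3 to 191.1 (median 152.6) in TLR7.1 Mono. There TLR7.1 monocytes passed the macrophage medians of 105.5 and 81.5 CPM. The difference was -2.22 ± 0.373 (adjusted p = 0.00112). Neither gene's monocyte ranges overlapped.

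Mras, a Ras-related GTPase, was the gene expressed in macrophages alone that met the naming rule. It had 0 counts in the 6 WT Mono libraries and 33 in TLR7.1 Mono, at least 10.8-fold higher against a floor of 3 counts over the group. Its TLR7.1 monocyte levels were still 0 to 6.77 CPM (median 4.20), below the WT macrophage range of 29.0 to 74.6. Cfp, the complement regulator properdin, and Tlr4, the lipopolysaccharide receptor, also rose in Mono by 0.54 ± 0.148 and 0.91 ± 0.242 (adjusted p = 0.0429 and 0.0361). Both lost that call without 8 or more of the mice, among them 24028, 24107, 24214, 24261, 24323, 24415 and 24416. Tlr4, and Acss1 and Ms4a7 below, were chosen after their values were seen. The 2 falls were Acss1, a mitochondrial acetyl-CoA synthetase, at -1.56 ± 0.283, and Ms4a7, a macrophage membrane protein, at -0.99 ± 0.222. The median of Acss1 went from 72.9 to 21.8 CPM and that of Ms4a7 from 92.4 to 44.1 CPM in Mono.

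Genes of the neutrophil list were also among the monocyte rises. Of 10 tested genes of the neutrophil list, 7 rose in Mono (Camp, Elane, Lcn2, Ngp, Prtn3, S100a8 and S100a9), where 1.8% of all genes rose. None was called in RPM and none for the difference. The summed level was 683.2 to 856.8 CPM (median 769.4) in WT Mono and 873.9 to 2450 (median 1179) in TLR7.1 Mono, without overlap. In RPM it was 43.8 to 99.1 CPM (median 70.8) and 53.6 to 465.8 (median 79.2). Elane, neutrophil elastase, which is made by granulocyte-monocyte progenitors, lay at 0 to 4.18 CPM in WT Mono and 23.4 to 90.5 (median 43.4) in TLR7.1 Mono, and S100a8, an alarmin, at 1.03 to 5.23 and 63.5 to 227.7 CPM. With group weights 4 of the 10 rose and 1 fell. S100a8 and S100a9 are also members of the classical monocyte list. Of its 21 tested genes, 3 rose (Cd177, S100a8 and S100a9) and 1 fell (Vcan) in Mono, where 0.299% of all genes fell. None of the 21 fell in Mono without mouse 24028, 24068, 24107, 24261, 24323, 24415 or 24416. The part of progenitors or neutrophils in the monocyte calls was not tested.

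The remaining lists gave few or no calls for the difference, which was called for 0.689% of all genes. Of 17 complement genes 3 were called (C1qa, C1qc and Cfp, all more negative, and 1 without mouse 24323), and of 29 phagocytosis genes 1 (Itgb3, positive, adjusted p = 0.0378, and 0.137 with mouse as a block). None was called among 18 MHC class II and co-stimulation genes, 21 chemokines and their receptors, 30 lysosomal genes, 22 cholesterol genes, 22 genes induced by interferon-gamma, 21 Ly6C-low monocyte genes and 9 mitochondrially encoded genes. Within these lists the RPM calls included falls of Cd74, Cd83 and Cd86 and of Ccl24, Cx3cr1, Cxcl16 and Cxcl2, where 3.77% of all genes fell. Of these, Cd83 was also called as a fall in Mono and is a shared gene. Ccl24, an eosinophil chemokine, went from 72.0 to 1113 CPM (median 267.5) to 0 to 31.6 (median 10.5) in RPM, without overlap. Its difference of -4.00 ± 0.996 lay just outside the threshold (adjusted p = 0.052).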

How the data were processed

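RNA of 500 sorted spleen cells per library was sequenced after SMART-Seq v4 amplification, which does not mark the strand, so antisense reads cannot be told apart. The authors deposited 1 table of raw read counts per gene for 30 libraries. Per the submitters' processing notes the tools included CASAVA 1.8.2, TopHat, Bowtie and HTSeq 0.4.1 with build NCBIM37. Coordinates and promoters printed here are RefSeq GRCm38.p6, matched by symbol alone. All 30 columns were mapped to samples (0 unmapped).

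The counts were fitted in edgeR 4.0.16 (R 4.3.3; TMM, filterByExpr, robust quasi-likelihood, 5 group means) over 11030 of 37991 genes, with Benjamini-Hochberg adjustment at 0.05. Alternatives used limma 3.58.1 and DESeq2 1.42.0, the 24 libraries alone, other scaling, no filter, thinning, collection dates, and each mouse left out.

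Per the labels the RPM and Mono libraries of a number come from the same mouse. The residuals of the pairs correlated at -0.006 to 0.089 (median 0.033), above 0.1 in 0 mice.

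Named genes were the 10 largest differences in each direction among those called with the block and without each mouse, expressed in both populations and at 20 CPM or more. The rule also took 5 per direction of genes expressed in 1 population, the 10 largest shared rises and falls, filled up where few were steady, and up to 4 called members of a list. Members and lists were chosen with earlier results of these data known. Other genes given with values were chosen after these were seen.

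On simulated counts of 11030 genes, the fit recovered 78% of 200 genes whose difference was set to a log2 of 2, and 4.9% of its calls were false. Both shares describe the simulated counts alone. In the real libraries the spread was larger in RPM than in Mono, which a single spread per gene does not describe. The false share among the calls in the real libraries was not tested.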

Additional observations from a re-analysis of the deposited data

Results flagged for a closer look

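The effect of genotype differed between macrophages and monocytes by the interaction test (edgeR, adjusted p under 0.05) for 26 named genes. On the log2 scale, RPM minus Mono, the positive differences were 4.89 for Smim5, 4.19 for Ctse, 3.14 for Gas7, 3.10 for Ccdc88c, 2.96 for Gypc, 2.68 for Nfe2, 2.54 for Cib2, 2.54 for Isg20, 2.39 for Cpox, 2.23 for Emilin2, 2.21 for Rsad2 and 2.07 for Gda. The negative differences were -9.85 for Apol7c, -6.01 for Mras, -3.30 for Cd300lb, -3.19 for Kif11, -2.64 for Arhgap19, -2.59 for Cd38, -2.40 for C1qa, -2.22 for F11r, -2.06 for Gpr141, -1.99 for C1qc, -1.79 for Tgfbi, -1.41 for Trps1, -1.35 for Cks1b and -0.96 for Cfp.

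Single libraries stood apart from the other 5 of their group in 13 of 144 groups examined, where chance gives about 5%. In the RPM minus Mono difference of log2(CPM + 1) per mouse, these were Smim5 in TLR7.1 mouse 24308 (-4.39), Nfe2 in TLR7.1 mouse 24380 (-0.253), Cib2 in WT mouse 24323 (-5.89), Cpox in WT mouse 24416 (-1.10) and Kif11 in WT mouse 24214 (-0.82). Among log2(CPM + 1) levels in TLR7.1 RPM, they were Hmmr (2.63) and Ncapg (0) in mouse 24068, Cenpf in 24308 (4.36) and Kif18a in 24380 (6.91). Kif2c stood apart in the WT RPM library of 24416 (2.75). In WT Mono they were Cenpn in 24415 (0), and Hes1 (5.21) and C4b (2.78) in 24117.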

How the results depend on the processing

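With DESeq2 the difference was called for 209 genes, the RPM set held 166, the Mono set 33 and the opposite set 1. With limma-voom and group weights, 225 genes were called in RPM, 915 in Mono, 50 in both with the same sign and 3 with opposite signs. With mouse as a random effect in limma-voom, the difference was called for 162 genes, Mono calls numbered 403, the RPM set 116, the Mono set 32 and the opposite set 4. Thinning every library to 95002 counts left 15 genes for the difference, 269 in RPM, 50 in Mono, 28 shared, 12 in the RPM set and 3 in the Mono set; thinning removes counts by construction, and the cause of the other changes was not tested. Leaving out each mouse in turn gave 31 to 142 genes for the difference, 569 to 1343 in RPM, 57 to 117 shared, 23 to 111 in the RPM set, 6 to 27 in the Mono set and 0 to 3 opposite. With the replicate block the difference was called for 63 genes and that of Tlr7 was 0.57. The block ended the call of Gda alone among the named genes. Most of those called for the difference were chosen because their call stood with the block, so this was largely fixed beforehand. Abcb10 and Itgb3, added later, also lost their calls with the block.

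The 72 values of named genes gave 807 of 864 unchanged calls when a mouse was left out, with 57 lost and 0 reversed. Many of these genes were chosen because their calls stood without each mouse. That share was thus largely fixed by the choice and is no check of it. Under the other settings 524 of 578 calls stood, with 54 lost and 0 reversed. Group weights lost 20 and kept 52, thinning lost 18 and kept 30, and the DESeq2 Wald test kept all 72. The list counts under every fit and the motifs of the cell cycle homology region, CCAAT box and GATA site were chosen after seeing the data. The single spread per gene does not hold across groups, since RPM libraries varied more than monocyte libraries, so adjusted p-values in RPM may be too small and those in Mono too large. Depth limits genes with few counts in WT RPM, whose folds rest on single reads.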
